A study of Gallus gallus with 14 samples.

Results

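The first of the study's 3 sampling intervals, from embryonic day 7 (E7) to embryonic day 10 (E10), was followed in the retinal pigment epithelium (RPE) of the chicken embryo. The comparison rests on 7 of the 14 arrays, the 3 labelled E10 against the 4 labelled E7, and on all 38439 probe sets that are not controls. No measured value was used to choose these 7 arrays or the 38439 probe sets, while the probe set that stands for each gene was chosen by its mean signal. The study hybridized total RNA from RPE sheets at 4 ages, E7, E10, E14 and E18, to an Affymetrix chicken genome array that reads transcripts near their 3′ end. Each array held an independent preparation, for which sheets from 20 to 30 eyes were pooled, so each value is an average over many embryos. The labels name no strain, genotype, sex or treatment at either age, and age is the only stated difference between the groups. A single symbol was available for 27168 probe sets, which stood for 13009 genes, each taken from its probe set with the highest mean signal.

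The RPE is the single layer of pigmented cells between the neural retina and the choroid. It arises from the outer wall of the optic cup, where pigmented cells first divide and then leave the cell cycle, and it later carries the visual cycle, forms the outer blood-retinal barrier and clears shed photoreceptor membrane. In vertebrate cells generally, genes for mitosis and DNA replication are transcribed in dividing cells and turned down when cells leave the cycle, so their transcripts are a standard readout of proliferation.

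Signals are given as log2(intensity + 16) after quantile normalization, changes are E10 minus E7 on that scale, the SE after ± is that of the limma fit, and rose, fell and called refer to an adjusted p under 0.05 over all probe sets. A mean signal under 6.20, the 40th percentile over all probe sets, is named dim. The markers of the label were bright at both ages: TYR, the enzyme that starts melanin synthesis, read 14.77, 14.76, 14.72 and 14.76 at E7 and 14.87, 14.90 and 14.90 at E10, and the RPE transcription factor OTX2 read 14.65, 14.62, 14.47 and 14.53 at E7 and 14.72, 14.57 and 14.66 at E10. Neither was called (changes of 0.14 ± 0.05 and 0.08 ± 0.06, adjusted p = 0.179 and 0.609). TYRP1, DCT and PMEL, all of the melanosome, likewise had every signal at 14.65 or more and no call. The E7 arrays did not form 1 tight group. On the first principal component of the 7 arrays (28.3% of the variance), E7 replicates 1 and 2 lay at -66.8 and -73.1, E7 replicate 3 at -20.4, E7 replicate 4 at 19.3 and the E10 arrays between 38.6 and 61.9. The 3′ to 5′ ratio of ACTB signal was also lowest in E7 replicates 1 and 2 (1.25 and 1.30, against 1.36 to 1.50 in the other 5), and their globin signal was highest. In 1092 of the 1494 called genes (73.1%) the mean of E7 replicates 3 and 4 lay on the E10 side of the mean of replicates 1 and 2. Those calls were made with replicates 1 and 2 included, and no share over all genes was computed to set beside this count. E7 replicate 4 and E10 replicate 1 had the highest array medians (145 and 136, against 93.1 to 108 in the other 5) and shared fluidics station 1, while E10 replicates 2 and 3 ran on station 2 and E7 replicates 1 to 3 have no instrument file here. List counts below are therefore also given, rises first, without E7 replicates 1 and 2, after median centring in place of quantile normalization, and with the fluidics station as a block. Such refit counts are not given in full for the markers of other cells and the families described last. The last refit was added after seeing the data and holds only the arrays with an instrument file, so E7 is replicate 4 alone there. Only E10 replicate 1 shared its station, while E10 replicates 2 and 3 shared theirs with E14 arrays. The change in that refit is therefore E10 replicate 1 minus E7 replicate 4, which is 1 array per age. Calls kept or ended there rest on that pair and do not describe all 3 E10 arrays. The part of these array differences in the results was not tested beyond such refits.

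Across all probe sets, 2517 of 38439 (6.55%) were called, 1418 higher (3.69%) and 1099 lower (2.86%) at E10, by limma with Benjamini-Hochberg adjustment over the whole table. Among the 13009 genes 1494 (11.5%) were called: 794 rose (6.10% of all genes) and 700 fell (5.38%). Every list or family count below is to be set against these shares. Most changes were modest, with a median size of 0.67 on the log2 scale among called genes, and 232 genes (1.78% of all) rose and 173 (1.33%) fell at least 2-fold. All E10 arrays lay above all E7 arrays in 11.4% of genes and below them in 12.7%. Of the 11271 probe sets without a single symbol 450 were called, and they are not described further. Without E7 replicates 1 and 2, 877 genes were called, 789 of them among the 1494, which is 52.8% of the calls of all arrays and 90.0% of those of the smaller set, and no shared call changed sign. After median centring in place of quantile normalization 919 probe sets were called, 622 higher and 297 lower, and all 508 genes called in that fit were among the 1494. With the station block 876 genes were called, 669 of them among the 1494 with no change of sign. The shares of all genes called higher and lower were 3.87% and 2.87% without E7 replicates 1 and 2, 2.56% and 1.35% after median centring and 3.94% and 2.8% with the station block. Without E10 replicate 3, 1626 probe sets were called, 939 higher and 687 lower, and the number called lower was 682, 712 and 729 without E10 replicate 1, E10 replicate 2 and E7 replicate 2. Changes common to the whole sheet and changes in the share of its cells give the same array signal, so fewer cells of a type and less RNA per cell cannot be told apart in any result below.

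**Figure D1:**
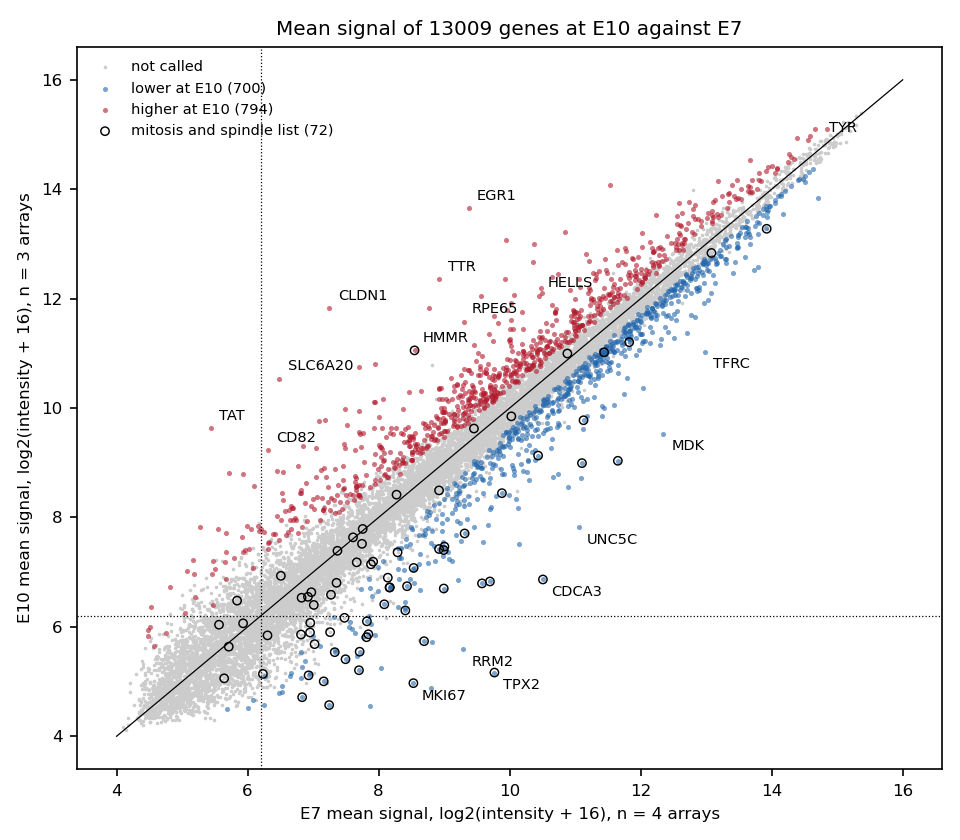
Each point is 1 of 13009 genes, with its mean signal at E7 (4 arrays, x axis) and at E10 (3 arrays, y axis), both as log2(intensity + 16), the dotted lines marking the dim limit of 6.20 and the diagonal no change. Genes of the mitosis and spindle list (open circles) lie mostly below the diagonal, and TTR, CLDN1, EGR1, TAT and SLC6A20 lie far above it.

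**Figure D2:**
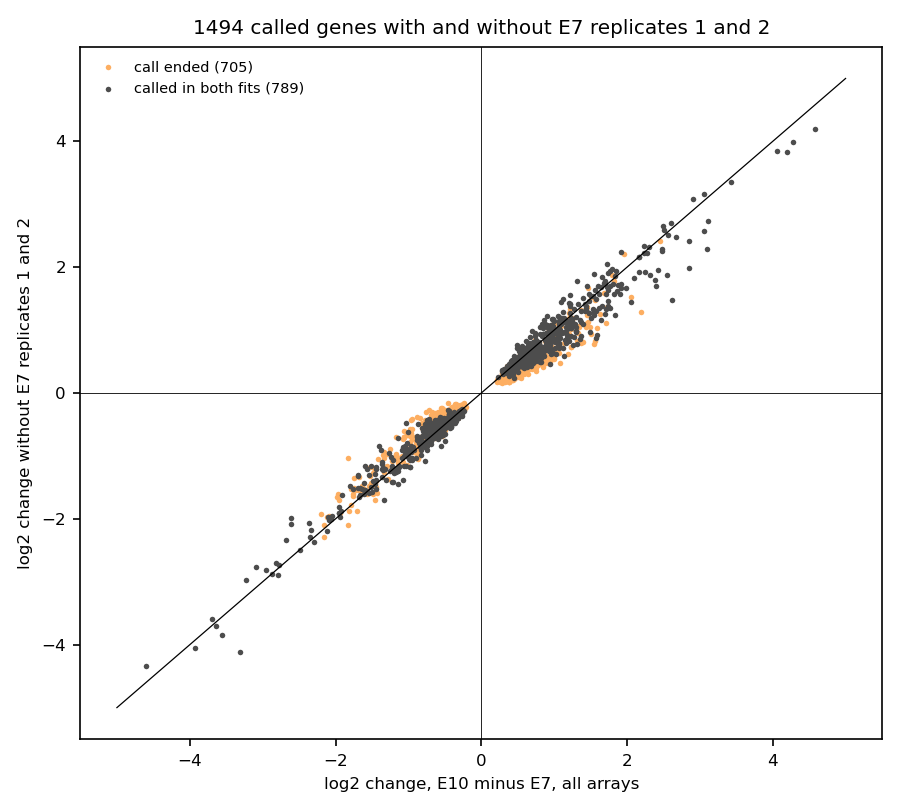
The E10 minus E7 change of the 1494 called genes in the fit with all arrays (x axis) is set against the change without E7 replicates 1 and 2 (y axis), both on the log2 scale, with 1 point per gene. Points run along the diagonal, 789 genes were called in both fits (dark), and the calls in orange ended.

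The mitosis and spindle list held the largest share of falling genes among the lists and families read here. Of its 72 measured members 33 fell and 1 rose, beside 5.38% and 6.10% of all genes, and its median change was -1.27, against -0.0189 over all genes. All 3 E10 arrays lay below all 4 E7 arrays in 45 members, against 12.7% of all genes. The summed signal of the list was 56973 to 69372 in the E7 arrays and 34373 to 36302 in the E10 arrays, so the groups did not overlap. Without E7 replicates 1 and 2, 23 members fell with a median of -1.19, after median centring 30 fell, and with the station block 14 fell with a median of -1.23.

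The largest falls of the list were those of TPX2 and CDCA3. TPX2, which nucleates spindle microtubules and activates Aurora kinase A, read 9.64, 10.42, 9.69 and 9.32 at E7 and 4.56, 5.16 and 5.77 at E10, and every E10 array was lower than every E7 array by a wide margin. It fell by 4.60 ± 0.41 (adjusted p = 1.88e-06), and its 3 probe sets all fell, by 1.77 to 4.60. CDCA3, a trigger of mitotic entry, read 9.99, 10.91, 10.52 and 10.62 at E7 and 6.53, 7.29 and 6.78 at E10 and fell by 3.64 ± 0.28 (adjusted p = 2.67e-07). The E10 arrays again stood clear of the E7 arrays. MKI67, which coats mitotic chromosomes and is the source of the Ki-67 proliferation marker, read 7.95, 8.54, 8.85 and 8.78 at E7 and 4.86, 4.17 and 5.89 at E10 and fell by 3.56 ± 0.45 (adjusted p = 6.33e-05). It was well above the dim limit at E7 and dim in all 3 E10 arrays. TPX2 and MKI67 had a mean below the dim limit at 1 age, and a pseudocount of 1 or 64 in place of 16 gave changes of -5.49 or -3.44 (TPX2) and -4.87 or -2.36 (MKI67). The call that ended with the station block was that of MKI67 (-3.92, adjusted p = 0.0537).

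Kinases, cyclins, checkpoint genes and motors of mitosis also fell. CDK1, the kinase that drives mitotic entry, read 10.59, 11.45, 11.09 and 11.29 at E7 and 8.97, 8.94 and 9.07 at E10 and fell by 2.11 ± 0.25 (adjusted p = 4.14e-05), and its partners CCNB1 (-1.35) and CCNB3 (-1.54), B-type cyclins, fell with it. PLK1, the polo kinase of centrosomes and kinetochores, read 9.35, 10.02, 9.60 and 9.82 at E7 and 7.43, 7.00 and 6.06 at E10 and fell by 2.87 ± 0.28 (adjusted p = 5.99e-06). Both kinases were lower in every E10 array than in any E7 array. The aurora kinase AURKB (-1.44) and its partner INCENP (-1.50), the checkpoint gene MAD2L1 (-1.30), the kinetochore gene NUF2 (-1.69) and the anaphase activator CDC20 (-2.96) also fell. So did the mitotic kinase PBK (-2.78) and the spindle genes NUSAP1 (-2.49), DLGAP5 (-2.09) and TACC3 (-0.42). TOP2A, which untangles sister chromatids, read 9.13, 9.62, 9.13 and 9.36 at E7 and 7.72, 7.99 and 7.41 at E10 and fell by 1.61 ± 0.21 (adjusted p = 8.92e-05). The motors KIF20B (-2.67), KIF15 (-2.62), KIF23 (-2.11) and KIF11 (-1.59), which work in spindle bipolarity and cytokinesis, and the condensin subunit SMC2 (-2.29), which compacts chromosomes, fell too. For CDC20, NUSAP1, DLGAP5 and KIF20B, dim at 1 age, the changes became -3.52 or -2.14 (CDC20), -3.20 or -1.58 (NUSAP1), -2.64 or -1.33 (DLGAP5) and -4.03 or -1.49 (KIF20B) with a pseudocount of 1 or 64. Median centring ended the call of TACC3 (-0.37, adjusted p = 0.522). The station block ended the calls of INCENP, NUF2, CDC20, NUSAP1, DLGAP5, TACC3, KIF20B, KIF23, KIF11 and SMC2 (all with unchanged direction, adjusted p = 0.104 to 0.263).

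Not all members fell. HMMR, a hyaluronan-binding protein that also acts at spindle poles, was the only rise of the list. It read 8.85, 8.42, 8.45 and 8.47 at E7 and 10.86, 11.01 and 11.30 at E10, every E10 array above every E7 array, and rose by 2.51 ± 0.13 (adjusted p = 3.44e-09). A second HMMR probe set, nearer the dim limit, did not pass (-0.12). Among members that did not pass, ZWILCH (0.03), KNTC1 (0.02) and MYBL2 (0.17) had changes near 0, while RACGAP1 (-2.00 ± 0.60, adjusted p = 0.0576), MELK (-1.34 ± 0.43, adjusted p = 0.0801) and NDC80 (-1.24 ± 0.41, adjusted p = 0.0867) had large negative values with wide errors. The motor gene KIF20A did not pass in its brightest probe set (0.03), while its second, of almost the same mean signal at E7, fell by 2.69 (adjusted p = 0.000471). Of the 38 members not called, 4 (ANLN, CENPL, KIF20A and KIF2C) had such another probe set that fell. At both ages 4 members were dim.

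**Figure D3:**
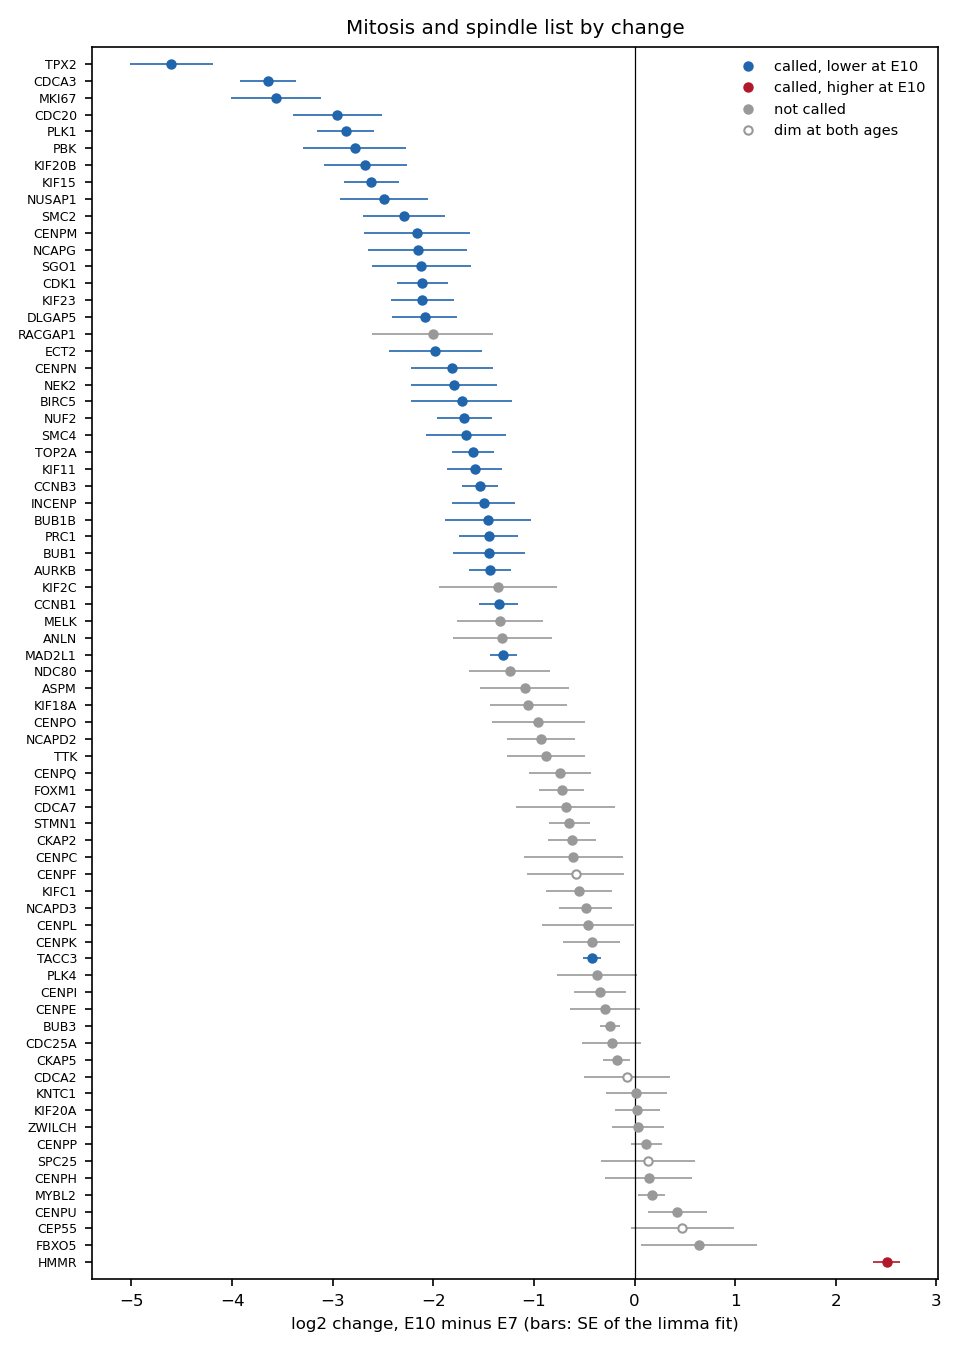
The log2 change from E7 to E10 (x axis) is drawn for each of the 72 measured members of the mitosis and spindle list, with bars of 1 SE of the limma fit. The 33 called falls (blue) run from -4.60 to -0.42, and HMMR (red) is the only called rise, at 2.51.

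Genes of DNA replication and nucleotide supply fell in part. Of 56 measured members 12 fell and 1 rose, beside 5.38% and 6.10% of all genes, with a median of -0.291. For replication genes limma's rises and falls numbered 1 and 5 without E7 replicates 1 and 2, after median centring 1 and 4, and with the station block 1 and 2. RRM2, the regulated subunit of ribonucleotide reductase, read 9.01, 9.77, 9.39 and 8.98 at E7 and 5.68, 4.73 and 6.35 at E10 and fell by 3.70 ± 0.38 (adjusted p = 9.37e-06), with a clear gap between the ages. The thymidylate synthase TYMS (-1.13), the helicase subunit MCM2 (-1.03), the clamp loader subunit RFC4 (-0.71) and the polymerase delta subunit POLD3 (-0.79) also fell. PCNA, the sliding clamp of replication, read 11.80, 11.96, 11.98 and 11.90 at E7 and 11.49, 11.69 and 11.41 at E10 and fell by 0.38 ± 0.08 (adjusted p = 0.00753), a small change that left its signal high at both ages. Other members of the replicative helicase had no uniform direction: MCM5 (-2.25 ± 0.72, adjusted p = 0.0814) and MCM3 (-0.84 ± 0.57, adjusted p = 0.547) did not pass, and MCM6 rose by 1.30 ± 0.23 (adjusted p = 0.00139), reading 7.90, 7.88, 8.35 and 8.75 at E7 and 10.01, 9.41 and 9.15 at E10. The MCM6 rise comes from the brightest of 4 probe sets, whose changes ran from -0.85 to 1.30, with 1 called lower. DCK2, a deoxycytidine kinase of the salvage pathway that lies outside the list, read 8.25, 9.11, 8.83 and 9.02 at E7 and 5.88, 4.22 and 4.54 at E10 and fell by 3.92 ± 0.45 (adjusted p = 2.44e-05), ranking second among the named falls. Since RRM2 and DCK2 had a dim mean at 1 age, the pseudocount moves the size: the changes at 1 or 64 in place of 16 came to -4.34 or -2.77 (RRM2) and -5.31 or -2.64 (DCK2). The call of POLD3 (-0.69, adjusted p = 0.0731) ended without E7 replicates 1 and 2. The calls of RFC4 (-0.67, adjusted p = 0.066), POLD3 (-0.74, adjusted p = 0.111) and PCNA (-0.31, adjusted p = 0.598) ended after median centring. No call remained with the station block for RRM2, TYMS, MCM2, POLD3 and PCNA (all with unchanged direction, adjusted p = 0.0834 to 0.427). Leaving out a single array ended the call of PCNA without E10 replicate 3 (-0.32).

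Regulators of the cycle outside mitosis changed in both directions. Of 47 measured members 6 fell and 2 rose, with a median of -0.114. The limma rises and falls of cycle regulators came to 2 and 5 without E7 replicates 1 and 2, 1 and 3 after median centring and 5 and 2 with the station block. CDKN1B, the inhibitor p27 that holds cyclin-dependent kinases in check, read 12.56, 12.42, 12.85 and 12.70 at E7 and 13.61, 13.55 and 13.55 at E10 and rose by 0.94 ± 0.12 (adjusted p = 0.000102). All E10 arrays were above all E7 arrays, and both CDKN1B probe sets rose. CKS2 and CKS1B, small subunits of cyclin-dependent kinases, fell by 2.78 and 1.20, and the inhibitory kinase gene WEE1 by 1.06. The proto-oncogene MYCN (-0.61) fell as well. So did RB1, the retinoblastoma gene, with 1 of 3 probe sets called (changes of -0.74 to -0.23). The cyclin CCNA2 also fell, with 1 of 2 probe sets called (-0.65 to -0.40). Refits of RB1 and CCNA2 are not given here. Among G1 regulators that did not pass were CCND1, a D-type cyclin, which read 12.18, 12.08, 11.67 and 11.68 at E7 and 12.07, 12.25 and 12.20 at E10, and the inhibitor CDKN1A (0.70 ± 0.40, adjusted p = 0.432). MYC (0.14 ± 0.10, adjusted p = 0.571) and the activator E2F1 (-1.27 ± 0.40, adjusted p = 0.0721) did not pass either. CKS2 had a mean below the dim limit at 1 age, and a pseudocount of 1 or 64 in place of 16 gave changes of -3.43 or -1.86. Leaving out E7 replicates 1 and 2 ended the call of MYCN (-0.55, adjusted p = 0.0579). With median centring in place of quantile normalization, MYCN (-0.52, adjusted p = 0.204) did not pass. CKS2 (-2.23, adjusted p = 0.236) and MYCN (-0.49, adjusted p = 0.0691) did not pass with the station block.

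Of 43 measured repair and cohesion genes 6 fell and 1 rose (median -0.075). In the limma refits repair and cohesion genes had 0 (2 at an unadjusted p under 0.05) and 3 rises and falls without E7 replicates 1 and 2, 0 (1 at an unadjusted p under 0.05) and 3 after median centring and 0 (3 at an unadjusted p under 0.05) and 1 with the station block. SMC1B, a cohesin subunit known from meiosis, read 9.12, 9.18, 8.42 and 8.56 at E7 and 4.96, 6.17 and 6.06 at E10 and fell by 3.09 ± 0.51 (adjusted p = 0.000779), and the recombination gene BRCA2 (-0.98) fell too. Of 35 chromatin genes 7 fell and 2 rose (median -0.194), with falls of the chromatin protein genes HMGB2 (-1.13), HMGB3 (-0.38) and H2AZ2 (-0.48). Of chromatin genes, limma called 1 and 3 higher and lower with the station block, 1 and 1 after median centring, and 1 and 4 without E7 replicates 1 and 2. HELLS, a chromatin remodeller needed for DNA methylation in dividing mammalian cells, went the other way: it read 10.33, 10.04, 10.68 and 10.72 at E7 and 12.05, 12.03 and 12.08 at E10 and rose by 1.61 ± 0.16 (adjusted p = 7.39e-06), with no overlap between the ages. The second HELLS probe set, dim at both ages (means of 5.25 and 4.28), changed by -0.98 without passing, so the rise rests on 1 probe set. For SMC1B, dim at 1 age, the changes became -3.60 or -2.28 with a pseudocount of 1 or 64. No longer called after median centring were HMGB3 (-0.29, adjusted p = 0.658) and H2AZ2 (-0.40, adjusted p = 0.398). Calls that ended with the station block were those of BRCA2 (-0.79, adjusted p = 0.171) and H2AZ2 (-0.55, adjusted p = 0.11).

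Some genes for making and breaking down protein fell, by less than 1 log2 unit in those named here. Of 37 proteasome genes 16 fell, of 45 ribosome biogenesis genes 11 and of 44 translation initiation factors 10, beside 5.38% of all genes. In limma 0 members of the 3 groups rose, and at an unadjusted p under 0.05 the rises numbered 1, 0 and 0. The medians were -0.234, -0.274 and -0.141. Among the largest of these were NCL, the nucleolar protein nucleolin, which read 13.82, 13.81, 13.57 and 13.50 at E7 and 13.13, 12.83 and 13.01 at E10 and fell by 0.68 ± 0.10 (adjusted p = 0.000289), and EIF3B, a scaffold of the initiation complex, which read 12.70, 12.59, 12.38 and 12.34 at E7 and 11.76, 11.69 and 11.72 at E10 and fell by 0.78 ± 0.09 (adjusted p = 1.71e-05). Each was lower in all E10 arrays than in any E7 array. The nucleolar genes GTPBP4 (-0.63), DDX21 (-0.58), NIP7 (-0.50) and NOP58 (-0.46), the core proteasome subunits PSMA1 (-0.55) and PSMA5 (-0.40), the base ATPase PSMC2 (-0.39) and the initiation factor EIF3L (-0.45) also fell. Of 59 cytosolic ribosomal protein genes 8 fell (median -0.114), led in adjusted p by RPL35A, which fell by 0.44 ± 0.07 (adjusted p = 0.000533). Of 67 mitochondrial ribosomal protein genes 11 fell (median -0.200), among them MRPL38 (-0.60) and MRPS10 (-0.48). In limma 0 genes of either family rose (0 and 0 at an unadjusted p under 0.05). These calls depend on the scaling. After median centring limma called 0 proteasome, 0 ribosome biogenesis and 0 initiation factor genes lower (2, 12 and 1 at an unadjusted p under 0.05), with medians of -0.178, -0.253 and -0.083, and of the 2 ribosomal families 0 in limma (2 at an unadjusted p under 0.05) and 1. Without E7 replicates 1 and 2 the falls numbered 11, 8, 5, 2 and 8 in the order named, and with the station block 6, 6, 5, 2 and 5. Median centring ended the calls of NCL, EIF3B, GTPBP4, DDX21, NIP7, NOP58, PSMA1, PSMA5, PSMC2, EIF3L, RPL35A, MRPL38 and MRPS10 (all with unchanged direction, adjusted p = 0.0699 to 0.675). The station block ended the calls of NCL (-0.36, adjusted p = 0.263), NOP58 (-0.43, adjusted p = 0.15), PSMA5 (-0.36, adjusted p = 0.0555) and MRPL38 (-0.64, adjusted p = 0.0503).

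Genes of energy metabolism changed by small amounts. Of 64 oxidative phosphorylation genes 11 fell and 2 rose (median -0.0683), with falls of at most 0.43 (NDUFA8) and rises of the complex I subunit NDUFS4 (0.64) and the cytochrome oxidase subunit COX6C (0.41). Of 25 glycolysis and lactate genes 5 fell and 2 rose (median -0.0798), the glycolytic enzymes ENO1 (-0.38), TPI1 (-0.33) and PGAM1 (-0.31) falling and PDK1, which restrains pyruvate entry into mitochondria, rising: it read 13.08, 12.93, 13.13 and 13.26 at E7 and 13.86, 13.71 and 13.71 at E10 and rose by 0.66 ± 0.09 (adjusted p = 8.69e-05). Every E10 value of PDK1 exceeded every E7 value. Of 41 splicing factors 8 fell and 1 rose, HNRNPA1 falling by 0.47. After median centring limma called 0 (3 at an unadjusted p under 0.05) and 0 (1 at an unadjusted p under 0.05) of oxidative phosphorylation genes higher and lower, against 0 (4 at an unadjusted p under 0.05) and 2 with the station block and 1 and 5 without E7 replicates 1 and 2. For glycolysis genes limma's rises and falls numbered 1 and 3 without E7 replicates 1 and 2, after median centring 1 and 0 (1 at an unadjusted p under 0.05), and with the station block 1 and 2. The limma rises and falls of splicing factors came to 0 (2 at an unadjusted p under 0.05) and 4 without E7 replicates 1 and 2, 0 (2 at an unadjusted p under 0.05) and 1 after median centring and 1 and 3 with the station block. The calls of NDUFA8 (-0.44, adjusted p = 0.0756) and NDUFS4 (0.29, adjusted p = 0.375) ended without E7 replicates 1 and 2. The calls of NDUFA8, NDUFS4, COX6C, ENO1, TPI1, PGAM1 and HNRNPA1 (all with unchanged direction, adjusted p = 0.106 to 0.771) ended after median centring. No call remained with the station block for NDUFA8, NDUFS4, COX6C, ENO1, TPI1 and HNRNPA1 (all with unchanged direction, adjusted p = 0.068 to 0.104). Leaving out a single array ended the call of NDUFA8 without E10 replicate 2 (-0.33) and E10 replicate 3 (-0.42) and NDUFS4 without any 1 of 5 of the 7 arrays (all but E7 replicate 3 and E7 replicate 4; changes 0.46 to 0.78 over all 7).

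Carriers and enzymes of retinoid metabolism were among the large rises. In the visual cycle and retinoid list 6 of 31 measured members rose and 3 fell, beside 6.10% and 5.38% of all genes. In the limma refits retinoid genes had 5 and 2 rises and falls without E7 replicates 1 and 2, 4 and 1 after median centring and 6 and 2 with the station block. TTR, transthyretin, which carries retinol with its binding protein, read 9.07, 8.62, 9.04 and 8.97 at E7 and 12.32, 12.42 and 12.34 at E10 and rose by 3.43 ± 0.09 (adjusted p = 4.27e-13). RPE65, the isomerase that regenerates the visual chromophore, read 9.70, 8.79, 9.25 and 9.44 at E7 and 11.50, 11.65 and 11.58 at E10 and rose by 2.28 ± 0.14 (adjusted p = 2.46e-08). Both were already far above the dim limit at E7, and no E10 array overlapped an E7 array. The retinol-binding protein RBP4 read 5.47, 7.61, 7.72 and 6.29 at E7 and 8.72, 8.91 and 9.16 at E10 and rose by 2.16 ± 0.39 (adjusted p = 0.00181), and ALDH1A2, which makes retinoic acid, rose by 1.86 ± 0.19 (adjusted p = 6.13e-06). BCO1, which cleaves carotenoids, rose by 0.68. A second TTR probe set, dim at both ages (means of 5.56 and 5.36), did not pass (-0.21). The falls included the retinol receptor. STRA6, which takes up retinol from its binding protein, read 8.23, 9.14, 8.78 and 8.89 at E7 and 7.86, 7.93 and 7.63 at E10 and fell by 0.95 ± 0.16 (adjusted p = 0.000944), and the retinal reductase DHRS3 fell by 0.67 ± 0.09 (adjusted p = 0.000107). Both were lower in all E10 arrays. LRAT, which stores retinol as esters, was dim at both ages, and RLBP1, the retinal carrier CRALBP, read 14.89, 14.88, 14.92 and 14.82 at E7 and 14.81, 14.92 and 14.96 at E10 without a call. The list's median was 0.13. With median centring in place of quantile normalization, BCO1 (0.73, adjusted p = 0.0637) and DHRS3 (-0.58, adjusted p = 0.181) did not pass.

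Pigment genes were called at shares near those of all genes. Among 29 genes of melanin and its organelle, 1 fell and 2 rose (3.45% and 6.90%, beside 5.38% and 6.10% of all genes), with a median of 0.0733. All E10 arrays lay above all E7 arrays in 9 members and below them in 1, against 11.4% and 12.7% of all genes. The summed signal was 221360 to 230560 at E7 and 242990 to 246560 at E10, without overlap. Of melanosome genes, limma called 1 and 0 (1 at an unadjusted p under 0.05) higher and lower with the station block, 0 (2 at an unadjusted p under 0.05) and 0 (0 at an unadjusted p under 0.05) after median centring, and 1 and 0 (1 at an unadjusted p under 0.05) without E7 replicates 1 and 2. DTNBP1, a subunit of the complex that sorts cargo to melanosomes, rose by 0.65 ± 0.09 (adjusted p = 0.000139). For TYR and TYRP1 every E10 array exceeded every E7 array, but the differences were small (0.14 ± 0.05 and 0.14 ± 0.05) and neither passed. The master regulator of pigment cells, MITF (-0.12 ± 0.13, adjusted p = 0.756), read 12.14, 11.84, 11.35 and 11.65 at E7 and 11.68, 11.55 and 11.64 at E10, and the ages overlapped. No longer called after median centring was DTNBP1 (0.66, adjusted p = 0.0987).

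Among junction genes the claudins, which form the tight junction strands, had the large changes. Of 40 tight junction genes 5 rose and 3 fell (median 0.0125). After median centring limma called 3 and 0 (3 at an unadjusted p under 0.05) of tight junction genes higher and lower, against 4 and 1 with the station block and 3 and 0 (4 at an unadjusted p under 0.05) without E7 replicates 1 and 2. CLDN1 read 7.43, 6.31, 7.65 and 7.60 at E7 and 11.74, 11.92 and 11.83 at E10 and rose by 4.58 ± 0.22 (adjusted p = 1.27e-09), ranking first of all rises by the rule for named genes. CLDN2, which forms paracellular channels for cations, read 7.44, 7.57, 8.17 and 6.90 at E7 and 9.73, 9.76 and 9.58 at E10 and rose by 2.17 ± 0.20 (adjusted p = 3.15e-06). CLDN5, also a strand protein of endothelium, read 10.32, 10.37, 10.59 and 10.64 at E7 and 12.14, 12.22 and 12.21 at E10 and rose by 1.71 ± 0.08 (adjusted p = 1.43e-09). For all 3 the lowest E10 array was above the highest E7 array. CLDND1, which carries a claudin domain and lies outside the list, rose by 0.30 ± 0.09 (adjusted p = 0.0485). The polarity scaffold gene PATJ (0.93) and the angiomotin relative AMOTL1 (0.30) also rose, and the polarity gene CRB2 (-0.94), the angiomotin gene AMOT (-0.52) and YBX3 (-0.26), a nucleic acid-binding protein found at junctions, fell. OCLN, occludin, read 7.82, 7.63, 7.99 and 7.59 at E7 and 7.65, 7.72 and 7.66 at E10 and did not pass, nor did TJP1, the scaffold ZO-1, which read 10.79, 10.86, 10.32 and 9.94 at E7 and 9.99, 10.21 and 10.29 at E10, both with overlapping ages. Of 48 cadherin and adherens junction genes 2 rose and 3 fell (4.17% and 6.25%, beside 6.10% and 5.38% of all genes, median -0.0249). For adherens junction genes limma's rises and falls numbered 0 (4 at an unadjusted p under 0.05) and 0 (4 at an unadjusted p under 0.05) without E7 replicates 1 and 2, after median centring 0 (4 at an unadjusted p under 0.05) and 2, and with the station block 2 and 0 (6 at an unadjusted p under 0.05). CDH2, N-cadherin, fell by 0.98 ± 0.20 (adjusted p = 0.00437), and CDH3, P-cadherin, did not pass (-0.04 ± 0.14). Leaving out E7 replicates 1 and 2 ended the calls of CLDND1, PATJ, AMOTL1, CRB2, AMOT, YBX3 and CDH2 (all with unchanged direction, adjusted p = 0.0513 to 0.257). Median centring ended the calls of CLDND1, PATJ, AMOTL1, CRB2, AMOT, YBX3 and CDH2 (all with unchanged direction, adjusted p = 0.0566 to 0.756). CLDND1, AMOTL1, AMOT, YBX3 and CDH2 (all with unchanged direction, adjusted p = 0.108 to 0.375) did not pass with the station block. Leaving out a single array ended the call of CLDND1 without any 1 of the 7 arrays (changes 0.28 to 0.31), PATJ without E10 replicate 3 (0.89), AMOTL1 without any 1 of 5 of the 7 arrays (all but E7 replicate 1 and E7 replicate 4; changes 0.27 to 0.33 over all 7), CRB2 without E7 replicate 1 (-0.91), E7 replicate 2 (-0.84) and E10 replicate 1 (-0.74), AMOT without any 1 of 4 of the 7 arrays (all but E10 replicate 1, E7 replicate 1 and E7 replicate 4; changes -0.58 to -0.44 over all 7) and YBX3 without any 1 of 4 of the 7 arrays (all but E10 replicate 2, E7 replicate 3 and E7 replicate 4; changes -0.30 to -0.23 over all 7).

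Of 67 actin and microvillus genes 7 rose and 7 fell, beside 6.10% and 5.38% of all genes, with a median of 0.0445. The limma rises and falls of actin genes came to 4 and 2 without E7 replicates 1 and 2, 0 (5 at an unadjusted p under 0.05) and 3 after median centring and 2 and 5 with the station block. TMSB4X, the actin-sequestering peptide thymosin beta 4, read 13.61, 13.71, 13.78 and 13.82 at E7 and 12.43, 12.63 and 12.53 at E10 and fell by 1.20 ± 0.13 (adjusted p = 1.1e-05), with no overlap. The actin regulator CORO1C fell by 0.96 ± 0.13 (adjusted p = 0.000187), while the small GTPase RHOB rose by 0.65 ± 0.09 (adjusted p = 0.000279) and the actin-binding CALD1 rose by 0.53 ± 0.08 (adjusted p = 0.00031). ACTB itself did not pass (0.01 ± 0.06). The calls of CORO1C (-0.85, adjusted p = 0.055), RHOB (0.72, adjusted p = 0.0869) and CALD1 (0.59, adjusted p = 0.131) ended after median centring. The call that ended with the station block was that of CALD1 (0.36, adjusted p = 0.19).

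Several carriers were among the large rises. Of 285 genes with a solute carrier symbol 31 rose and 11 fell, beside 6.10% and 5.38% of all genes (median 0.0306). In the limma refits solute carriers had 22 and 4 rises and falls without E7 replicates 1 and 2, 15 and 2 after median centring and 17 and 5 with the station block. SLC6A20, a sodium-driven carrier of proline and other imino acids, read 6.80, 5.76, 6.09 and 7.29 at E7 and 10.30, 10.70 and 10.61 at E10 and rose by 4.05 ± 0.26 (adjusted p = 4.75e-08). The E7 arrays straddled the dim limit and all E10 arrays were well above it. SLC13A4, a sulfate carrier, read 11.12, 10.57, 12.38 and 12.06 at E7 and 14.04, 14.15 and 14.06 at E10 and rose by 2.55 ± 0.28 (adjusted p = 1.53e-05). SLC13A5, a citrate carrier, read 8.02, 7.89, 8.03 and 7.86 at E7 and 10.01, 10.21 and 10.11 at E10 and rose by 2.16 ± 0.10 (adjusted p = 7.29e-10), and a further member of that family, the dicarboxylate carrier SLC13A3 (1.20), rose as well. These 3 relatives had non-overlapping ages. SLC7A10, a carrier of small neutral amino acids, rose by 1.92 ± 0.10 (adjusted p = 2.4e-09), the zinc importer SLC39A12 rose by 1.48 ± 0.09 (adjusted p = 4.12e-08), and the glucose and urate carrier relatives SLC2A12 (1.25) and SLC2A9L (1.24) and the monocarboxylate carrier relative SLC16A12 (1.07) rose. The folate carrier SLC19A1 (-0.76) and SLC12A2, the basolateral sodium-potassium-chloride cotransporter in most epithelia, which fell by 0.86 ± 0.16 (adjusted p = 0.00194), were among the falls. Among 81 genes for moving ions and water, 5 fell and 3 rose (6.17% and 3.70%, beside 5.38% and 6.10% of all genes, median -0.000345). The inward rectifier channel KCNJ5 (-1.91) fell and the channel KCNQ1 (0.81) rose. Of transport genes, limma called 3 and 4 higher and lower with the station block, 0 (7 at an unadjusted p under 0.05) and 1 after median centring, and 2 and 2 without E7 replicates 1 and 2. With median centring in place of quantile normalization, SLC19A1 (-0.64, adjusted p = 0.133), SLC12A2 (-0.75, adjusted p = 0.118) and KCNQ1 (0.80, adjusted p = 0.0681) did not pass.

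Some genes of phagocytosis, the lysosome and sterol synthesis rose. Among 57 phagocytosis and lysosome genes the rises numbered 11 and the falls 1, beside 6.10% and 5.38% of all genes (median 0.109). After median centring limma called 3 and 0 (1 at an unadjusted p under 0.05) of phagocytosis and lysosome genes higher and lower, against 3 and 3 with the station block and 8 and 1 without E7 replicates 1 and 2. MERTK, the receptor that triggers uptake of shed photoreceptor tips, read 9.09, 8.99, 9.45 and 9.09 at E7 and 10.22, 10.31 and 10.41 at E10 and rose by 1.16 ± 0.15 (adjusted p = 7.51e-05), every E10 array being higher. The lysosomal enzymes HEXA and PPT1 rose by 0.95 and 0.75, and the proton pump accessory subunit ATP6AP1 by 0.37, while the lysosomal enzyme GUSB fell by 0.67 ± 0.12 (adjusted p = 0.00146). Of 58 sterol and lipid genes 11 rose and 1 fell (median 0.137). For sterol and lipid genes limma's rises and falls numbered 9 and 1 without E7 replicates 1 and 2, after median centring 6 and 0 (5 at an unadjusted p under 0.05), and with the station block 8 and 0 (4 at an unadjusted p under 0.05). SQLE, the squalene epoxidase of cholesterol synthesis, read 9.11, 9.19, 9.29 and 9.18 at E7 and 10.43, 10.39 and 10.46 at E10 and rose by 1.24 ± 0.17 (adjusted p = 0.000148). INSIG1, a sterol-sensing brake on that pathway and itself induced by it, read 8.01, 8.15, 7.94 and 8.0 at E7 and 9.31, 9.33 and 9.25 at E10 and rose by 1.27 ± 0.17 (adjusted p = 0.000114). Neither gene had overlapping ages. The synthesis enzymes MSMO1 (0.75) and FDFT1 (0.95) and the elongase of long polyunsaturated fatty acids ELOVL2 (1.07) rose, and FDPS, which supplies the farnesyl precursor, fell by 0.67 ± 0.13 (adjusted p = 0.00387). No longer called after median centring were ATP6AP1 (0.46, adjusted p = 0.453), GUSB (-0.59, adjusted p = 0.195) and FDPS (-0.66, adjusted p = 0.0622). The station block ended the calls of HEXA (0.84, adjusted p = 0.0568), ATP6AP1 (0.35, adjusted p = 0.0661) and FDPS (-0.49, adjusted p = 0.271).

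Genes for iron, copper and the handling of oxidants changed in both directions. TFRC, the transferrin receptor that takes up iron and is abundant in dividing cells, read 13.21, 13.02, 12.98 and 12.70 at E7 and 11.13, 11.01 and 10.94 at E10 and fell by 1.95 ± 0.11 (adjusted p = 4.55e-09), and both TFRC probe sets fell. Ceruloplasmin, CP, a copper ferroxidase that lets iron leave cells, read 9.74, 8.72, 11.57 and 11.46 at E7 and 12.95, 13.03 and 12.99 at E10 and rose by 2.62 ± 0.48 (adjusted p = 0.002). The CP values at E7 were spread over a wide range, with replicates 1 and 2 lowest, and none reached E10. SOD3, extracellular superoxide dismutase, read 5.02, 5.11, 6.04 and 6.52 at E7 and 7.42, 7.84 and 7.90 at E10 and rose by 2.05 ± 0.28 (adjusted p = 0.000168). In the whole oxidative stress list 6 of 53 rose and 6 fell (median 0.0336). The limma rises and falls of oxidative stress genes came to 5 and 3 without E7 replicates 1 and 2, 3 and 1 after median centring and 6 and 3 with the station block. Since SOD3 had a dim mean at 1 age, the pseudocount moves the size: the changes at 1 or 64 in place of 16 came to 2.54 or 1.36.

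Matrix genes changed in both directions. Of 46 basement membrane genes 8 rose and 5 fell (median 0.141). In the limma refits basement membrane genes had 5 and 3 rises and falls without E7 replicates 1 and 2, 5 and 3 after median centring and 5 and 2 with the station block. NID1, nidogen, which links laminin to collagen IV, read 11.71, 11.68, 11.83 and 11.89 at E7 and 12.85, 12.89 and 12.86 at E10 and rose by 1.09 ± 0.07 (adjusted p = 3.09e-08). The collagen IV chain COL4A4 read 10.10, 9.65, 9.85 and 9.15 at E7 and 11.28, 11.41 and 11.35 at E10 and rose by 1.66 ± 0.15 (adjusted p = 2.78e-06), and the inhibitor of matrix proteases TIMP3 rose by 0.89 ± 0.09 (adjusted p = 1.13e-05). LAMB1, the laminin beta 1 chain, read 13.00, 13.29, 13.03 and 12.79 at E7 and 11.87, 12.18 and 11.89 at E10 and fell by 1.05 ± 0.14 (adjusted p = 8.4e-05). None of these had overlapping ages. Of 85 fibrillar, elastic and cartilage matrix genes 13 rose and 8 fell (median -0.00587), with rises of the fibrillar chains COL11A1 (1.83), COL5A1 (1.15) and COL1A2 (0.95), the crosslinking enzyme LOX (1.73), the adhesive protein TGFBI (1.65) and the protease ADAMTS5 (1.57). Of fibrillar and cartilage matrix genes, limma called 9 and 5 higher and lower with the station block, 9 and 5 after median centring, and 15 and 3 without E7 replicates 1 and 2. COL12A1, a collagen that associates with fibrils, read 10.29, 10.06, 10.06 and 10.09 at E7 and 8.50, 8.09 and 7.91 at E10 and fell by 1.96 ± 0.25 (adjusted p = 8.37e-05), and the microfibril genes EMILIN3 (-1.67) and MFAP2 (-1.38) fell. COL6A6, a collagen VI chain outside both lists, read 5.58, 4.22, 6.68 and 6.37 at E7 and 8.75, 9.02 and 8.67 at E10 and rose by 3.10 ± 0.45 (adjusted p = 0.000245). COL6A6 had a mean below the dim limit at 1 age, and a pseudocount of 1 or 64 in place of 16 gave changes of 3.91 or 2.23. No call remained with the station block for LOX (1.36, adjusted p = 0.108), ADAMTS5 (1.21, adjusted p = 0.194) and EMILIN3 (-1.33, adjusted p = 0.145).

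Signalling genes moved in both directions. Of 119 growth factor, morphogen and receptor genes 17 rose and 11 fell (median 0.0262). After median centring limma called 9 and 5 of growth factor and receptor genes higher and lower, against 9 and 3 with the station block and 10 and 5 without E7 replicates 1 and 2. MDK, the heparin-binding factor midkine, read 12.43, 12.49, 12.27 and 12.20 at E7 and 9.40, 9.60 and 9.59 at E10 and fell by 2.82 ± 0.22 (adjusted p = 4.22e-07), and its relative PTN (pleiotrophin), fell by 1.81 ± 0.22 (adjusted p = 4.62e-05). ETV4, a transcription factor induced by FGF signalling, fell by 1.61 ± 0.18 (adjusted p = 2.12e-05). Among the rises were the endothelin receptor EDNRB, which read 9.97, 9.86, 10.74 and 10.84 at E7 and 12.81, 12.59 and 12.61 at E10 and rose by 2.31 ± 0.19 (adjusted p = 8.88e-07), the IGF-binding protein IGFBP2 (1.24), the peptide hormone ADM (1.18), the growth factor PDGFC (1.58), and FGF12, an intracellular FGF homologue, which read 5.19, 4.93, 7.10 and 6.51 at E7 and 8.39, 9.16 and 8.82 at E10 and rose by 2.86 ± 0.39 (adjusted p = 0.000148). Every E10 array was above every E7 array for EDNRB and FGF12. Of 27 immediate-early and stress genes 5 rose and 5 fell (median 0.126). For immediate-early genes limma's rises and falls numbered 3 and 3 without E7 replicates 1 and 2, after median centring 1 and 2, and with the station block 5 and 3. EGR1, a transcription factor induced within minutes by growth factors, read 8.97, 9.20, 9.70 and 9.61 at E7 and 13.95, 13.36 and 13.66 at E10 and rose by 4.28 ± 0.16 (adjusted p = 8.37e-11), and both EGR1 probe sets rose. JUN rose by 0.66 ± 0.11 (adjusted p = 0.000606), while the phosphatase genes DUSP4 and DUSP1, which switch off MAP kinases, fell by 1.45 and 1.05. For FGF12, dim at 1 age, the changes became 3.35 or 2.10 with a pseudocount of 1 or 64. Median centring ended the call of JUN (0.76, adjusted p = 0.112). ETV4 (-1.07, adjusted p = 0.0888) and PDGFC (0.53, adjusted p = 0.137) did not pass with the station block.

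Of 54 axon guidance genes 5 rose and 4 fell (9.26% and 7.41%, beside 6.10% and 5.38% of all genes, median -0.136). The limma rises and falls of guidance genes came to 3 and 4 without E7 replicates 1 and 2, 3 and 2 after median centring and 4 and 3 with the station block. UNC5C, a netrin receptor, read 11.33, 11.31, 10.91 and 10.65 at E7 and 7.67, 7.83 and 7.95 at E10 and fell by 3.23 ± 0.32 (adjusted p = 6.39e-06), and the ephrin ligand EFNB1 (-0.76) and its receptor EPHB1 (-1.27) fell, while the secreted cues SEMA3C (0.98) and SLIT2 (0.90) rose. Of 61 Wnt pathway genes 5 rose and 3 fell (8.20% and 4.92%, median -0.0581). The largest change of the list was that of RSPO3 (2.46), with 2 of 3 probe sets called higher and the lowest at -0.39. The ligand WNT9A (0.66) and the secreted modulators WIF1 (0.92) and DKK3 (0.33) were also called higher. The receptor TNFRSF19 (-0.66) and the ligand WNT5B (-0.52) were called lower. After median centring WNT5B did not pass, and at most 1 of RSPO3, WIF1 and DKK3 did. Other refits of RSPO3, WIF1, DKK3 and WNT5B are not given here. In the limma refits Wnt pathway genes had 3 and 2 rises and falls without E7 replicates 1 and 2, 1 and 0 (7 at an unadjusted p under 0.05) after median centring and 2 and 1 with the station block. Of 69 eye and RPE transcription factors 4 rose and 6 fell (5.80% and 8.70%, median 0.0121). Of eye transcription factors, limma called 2 and 1 higher and lower with the station block, 1 and 0 (9 at an unadjusted p under 0.05) after median centring, and 3 and 2 without E7 replicates 1 and 2. FOXO1, a transcription factor that in mammals promotes quiescence and responds to insulin signalling, read 7.94, 7.94, 7.70 and 7.46 at E7 and 9.34, 9.61 and 9.71 at E10 and rose by 1.79 ± 0.14 (adjusted p = 4.12e-07), with no overlap between the ages. PAX6, the eye field regulator, read 10.43, 10.30, 10.55 and 10.55 at E7 and 9.79, 10.14 and 9.95 at E10 and fell by 0.50 ± 0.13 (adjusted p = 0.0313). The forkhead gene FOXP2 (-0.77) fell. The call of PAX6 (-0.59, adjusted p = 0.0551) ended without E7 replicates 1 and 2. The calls of EFNB1, SLIT2, WNT9A, TNFRSF19, PAX6 and FOXP2 (all with unchanged direction, adjusted p = 0.0726 to 0.334) ended after median centring. Calls that ended with the station block were those of EPHB1 (-0.90, adjusted p = 0.138), PAX6 (-0.76, adjusted p = 0.103) and FOXP2 (-0.63, adjusted p = 0.0506). Leaving out a single array ended the call of PAX6 without any 1 of 5 of the 7 arrays (all but E10 replicate 2 and E7 replicate 2; changes -0.58 to -0.41 over all 7).

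Several of the largest changes lay outside these groups. TAT, the enzyme that degrades tyrosine, read 4.39, 5.76, 5.47 and 6.11 at E7 and 9.28, 9.92 and 9.69 at E10 and rose by 4.19 ± 0.62 (adjusted p = 0.000307), dim in every E7 array and bright in every E10 array. SOCS3, a feedback inhibitor of cytokine signalling, read 8.80, 8.96, 9.04 and 8.29 at E7 and 11.74, 11.93 and 11.84 at E10 and rose by 3.06 ± 0.13 (adjusted p = 3.1e-10). The tetraspanin CD82 read 6.64, 6.35, 6.52 and 5.75 at E7 and 9.15, 9.20 and 9.32 at E10 and rose by 2.91 ± 0.17 (adjusted p = 9.09e-09). All 3 had groups that did not overlap. The membrane-shaping protein REEP6 (3.06 ± 0.27), the LIM-domain cofactor FHL2 (2.85 ± 0.41), the secreted proteoglycan SPOCK1 (2.67 ± 0.22) and HORMAD1 (2.61 ± 0.18), a meiotic chromosome protein, also rose. LOC769726 and LOC770705, 2 loci without a gene name here, rose by 3.12 and fell by 3.31. Since TAT and LOC770705 had a dim mean at 1 age, the pseudocount moves the size: the changes at 1 or 64 in place of 16 came to 4.98 or 3.16 (TAT) and -4.67 or -2.01 (LOC770705).

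**Figure D4:**
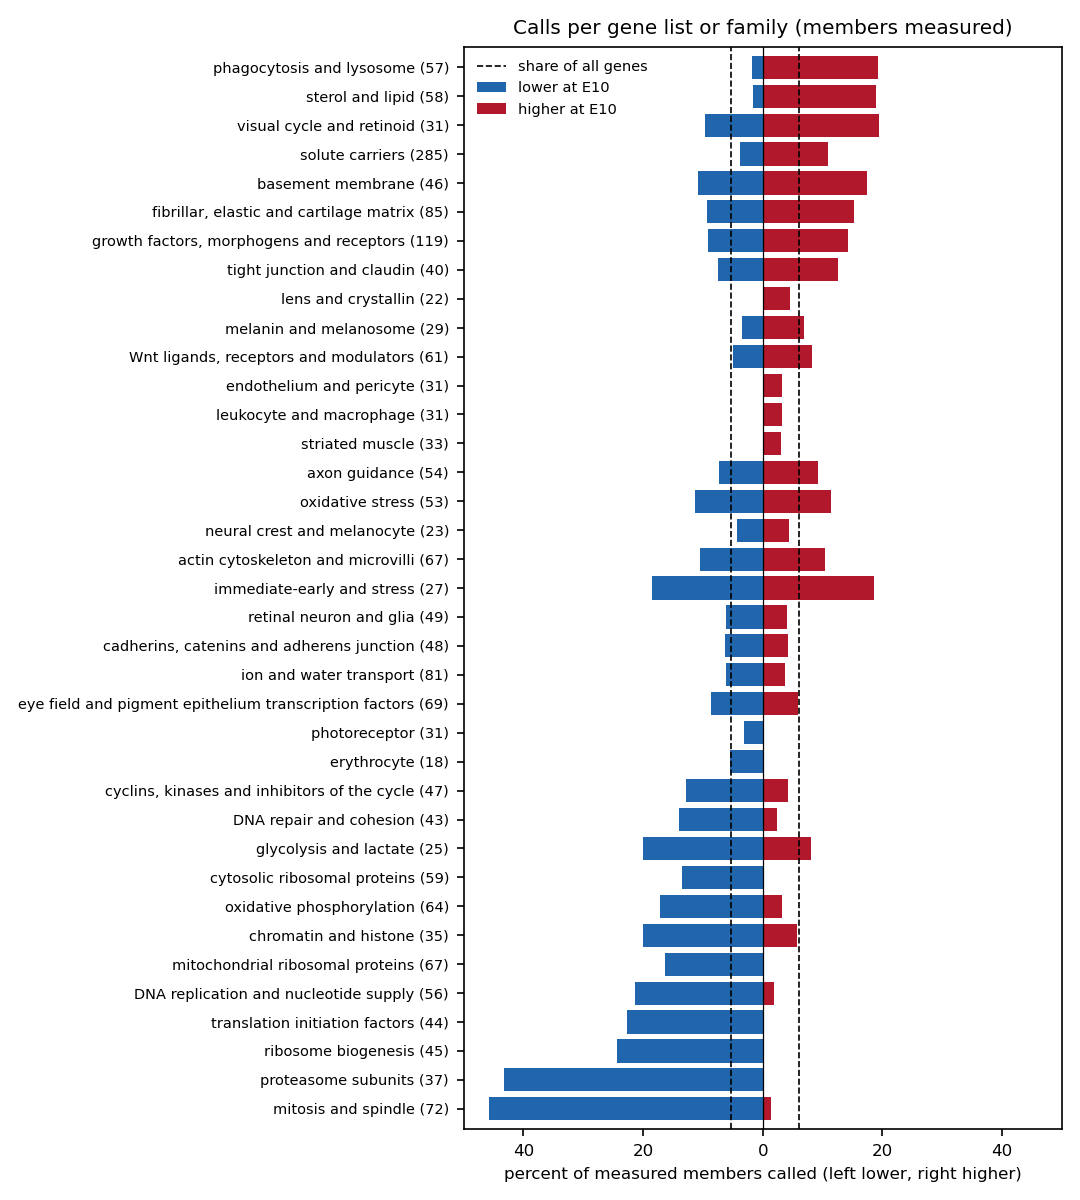
Bars give the percent of measured members of each list or family (number measured in brackets) that were called lower (blue, left) or higher (red, right) at E10, with dashed lines at the shares of all genes, 5.38% and 6.10%. Mitosis and spindle and proteasome genes have the longest bars to the left among those drawn, and visual cycle, phagocytosis, sterol and immediate-early genes the longest to the right.

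Markers of other cells that a sheet could carry were read beside these changes. Of 31 photoreceptor genes 1 fell (UNC119, by 0.88) and 0 rose in limma (1 at an unadjusted p under 0.05). After median centring 0 photoreceptor genes fell in limma (2 at an unadjusted p under 0.05), so the call of UNC119 ended there. Their summed signal was 10997 to 11876 at E7 and 8414 to 9311 at E10, while their median change was 0.066. At both ages 13 of the 31 were dim, and all E10 arrays lay below all E7 arrays in 2. Of 49 genes of retinal neurons and glia 3 fell and 2 rose (summed signal 81488 to 83829 at E7 and 81595 to 83467 at E10). That sum holds RLBP1, also a member of the retinoid list above, with means of 14.88 at E7 and 14.90 at E10. No sum without RLBP1 was computed, so the sum does not isolate neural cells. The glial and neural crest factor SOX10 was among the falls: it read 12.60, 12.58, 12.46 and 12.42 at E7 and 11.24, 11.25 and 11.37 at E10 and fell by 1.23 ± 0.09 (adjusted p = 2.57e-07), with both probe sets called. Of 31 endothelial and pericyte genes CLDN5 alone was called, and the summed signal was 4006 to 4774 at E7 and 8073 to 8296 at E10, or 2698 to 3188 and 3496 to 3572 without CLDN5. At both ages 15 of these 31 genes were dim, among them the defining endothelial genes CDH5 and TEK. All E10 arrays lay above all E7 arrays in 3 members and below them in 0, against 11.4% and 12.7% of all genes. Of 31 leukocyte genes, 14 of them dim at both ages, the macrophage receptor CSF1R alone was called. It read 11.69, 11.81, 12.09 and 11.93 at E7 and 12.52, 12.96 and 12.72 at E10 and rose by 0.85 ± 0.11 (adjusted p = 6.88e-05). PTPRC and SPI1, which define leukocytes, were dim at both ages. The brightest PTPRC probe set at these ages had means of 5.28 at E7 and 6.19 at E10, just under the limit, and was not called (0.91). All E10 arrays lay above all E7 arrays in 4 leukocyte genes and below them in 0. The summed leukocyte signal was 6558 to 8449 at E7 and 9618 to 11427 at E10, or 3100 to 4570 and 3483 to 3777 without CSF1R. 

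Erythrocyte signal was uneven among the E7 arrays. Of 18 erythrocyte genes 1 fell, the embryonic globin HBE, which read 9.95, 9.77, 8.26 and 8.30 at E7 and 7.12, 7.01 and 7.61 at E10 and fell by 1.82 ± 0.39 (adjusted p = 0.00678). HBA1, an alpha globin, read 11.95, 12.01, 8.90 and 7.59 at E7 and 8.19, 8.48 and 8.77 at E10, so its 2 high arrays were E7 replicates 1 and 2, and it was not called. The summed erythrocyte signal was 12923 and 13205 in those 2 arrays, 8133 and 7937 in E7 replicates 3 and 4, and 7690 to 8089 at E10. Of 33 striated muscle genes 1 rose (ACTA1, skeletal actin, by 0.77), of 22 lens genes 1 rose (MIP, by 0.86), and of 23 neural crest genes EDNRB rose and SOX10 fell. Summed signals were 5461 to 6555 at E7 and 6790 to 7283 at E10 for muscle, 1785 to 2784 at E7 and 1831 to 2466 at E10 for lens and 29333 to 30872 at E7 and 33299 to 34862 at E10 for neural crest. The neural crest sum holds EDNRB, whose mean went from 10.35 to 12.67, and no sum without it was computed. The median change of that list was -0.228. Dim at both ages were 21 of the muscle, 8 of the lens and 10 of the neural crest genes. Leaving out E7 replicates 1 and 2 ended the calls of HBE (-1.03, adjusted p = 0.116) and MIP (0.61, adjusted p = 0.102). With median centring in place of quantile normalization, ACTA1 (0.72, adjusted p = 0.0781) did not pass. The station block ended the calls of HBE (-1.18, adjusted p = 0.32), ACTA1 (0.72, adjusted p = 0.116) and MIP (0.51, adjusted p = 0.315). Leaving out a single array ended the call of MIP without E10 replicate 1 (0.78) and E10 replicate 2 (0.80).

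Levels at the later ages place the interval in the series, without a test here. The median gene of the mitosis and spindle list had a mean signal of 7.86 at E7 and 6.72 at E10, with 6.78 by E14 and 6.62 by E18, so the E10 value was close to those of the later ages. These values lie not far above the dim limit of 6.20, and members dim at E10 could show little further fall. TOP2A had 9.31 ± 0.23 (SD, n = 4) at E7 and 7.71 ± 0.30 (n = 3) at E10, then 7.28 ± 0.09 (n = 3) by E14 and 7.51 ± 0.26 (n = 4) by E18, with the later ages close to E10. CLDN1 had 7.25 ± 0.63 (SD, n = 4) at E7 and 11.83 ± 0.09 (n = 3) at E10, then 13.37 ± 0.06 (n = 3) by E14 and 12.82 ± 0.08 (n = 4) by E18. TTR had 8.93 ± 0.21 (SD, n = 4) at E7 and 12.36 ± 0.05 (n = 3) at E10, then 14.51 ± 0.05 (n = 3) by E14 and 14.87 ± 0.04 (n = 4) by E18, and for both genes the step up to E10 was wider than either later step. HELLS, which was highest at E10, had 10.45 ± 0.32 (SD, n = 4) at E7 and 12.05 ± 0.02 (n = 3) at E10, then 10.85 ± 0.05 (n = 3) by E14 and 8.57 ± 0.30 (n = 4) by E18. STRA6, lower at E10 than at E7 or E18, had 8.76 ± 0.38 at E7 (SD, n = 4), 7.80 ± 0.15 at E10 (n = 3) and 14.26 ± 0.12 at E18 (n = 4), so a higher level followed its fall. Its E14 level is not given here. CP had 10.37 ± 1.38 (SD, n = 4) at E7 and 12.99 ± 0.04 (n = 3) at E10, then 11.75 ± 0.05 (n = 3) by E14 and 7.95 ± 0.46 (n = 4) by E18, and its E10 level was the highest of the 4 ages.

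**Figure D5:**
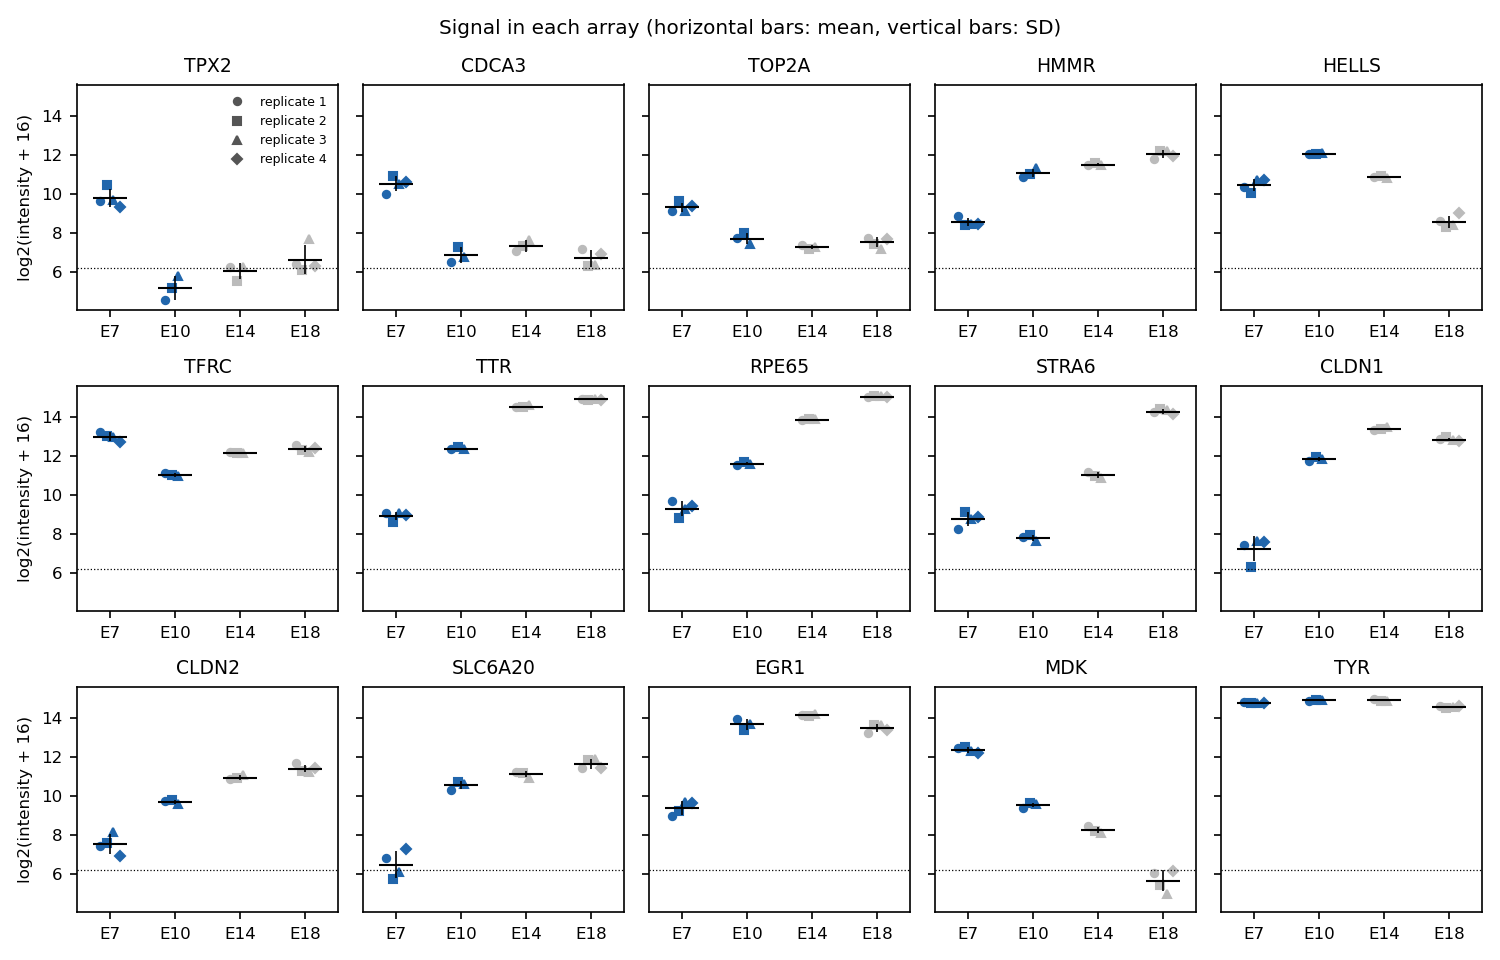
Signal as log2(intensity + 16) is shown for 15 genes in each of the 14 arrays by age (E7 and E10 in blue, later ages in grey, symbols by replicate number), with the mean and SD of each age and the dim limit of 6.20 dotted. TPX2, CDCA3 and TOP2A drop between E7 and E10 and stay low, CLDN1, TTR and EGR1 step up between the same ages, HELLS peaks at E10, and TYR is level.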

How the data were processed

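The authors deposited 1 intensity per probe set and array. The files scale all 14 arrays to a trimmed mean near 500 (2% off each end, 500.1 in each array), and the software that summarized the probes is not given in the sources used here. From the deposited instrument settings files, used for the arrays that have one here, the fluidics station was read. The 96 control probe sets were left out. Signals were log2(intensity + 16), quantile normalized over all 14 arrays. The limma package (3.58.1, R 4.3.3) fitted age means to all 14 arrays with lmFit and eBayes (trend), and the contrast E10 minus E7 was adjusted by Benjamini-Hochberg over 38439 probe sets. The code was checked on simulated data. Symbols came from the platform annotation given for these probe sets: 27168 had a single symbol, 177 several and 11094 none. Of 171 called genes named in the text 93 had further probe sets, and in 15 at least 1 of these had the opposite sign, called in 1 (MCM6). Of 33 named genes not called, 4 had another probe set called. Genes were picked by rank among called genes with non-overlapping arrays (15 per direction), by the smallest adjusted p and the largest change in each list (up to 5 and 1) or family (up to 2), and from a fixed set. The text gives only part of the genes so picked. Not described elsewhere are, among others, NES (-1.54), SMOC2 (-1.96 to -0.43), GAPDH (-0.38 to -0.25) and COL2A1 (-0.98 to -0.01). Each had at least 1 probe set called lower. The counts and checks of named genes here and below leave out these genes and RB1, CCNA2, RSPO3, WIF1, DKK3, WNT5B and UNC119. Members, lists and the rule were chosen with earlier results of these data known. Some members were named after their values were seen. Alternatives varied scaling, pseudocount, dim filter, trend, array weights, replicate block, thresholds, and arrays left out. Each preparation is labelled independent. The p-values measure the spread within ages over all 14 arrays, where preparation and array processing cannot be told apart. On the second principal component of all 14 arrays, E7 replicates 1 and 2 lay at 62.0 and 68.0 and E18 replicates 2 and 3 at 50.0 and 53.2. All other arrays lay at 12.1 or below. The fit treats arrays as independent, while E7 replicate 4 and E10 replicate 1 deviated together (r = 0.41).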

Additional observations from a re-analysis of the deposited data

Results flagged for a closer look

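Among the 204 genes named in the text, 17 had 1 E7 array set apart from the other 3: its gap to the nearest, as a part of the whole E7 range, passed Dixon's critical value for 4 samples. Chance alone does this in about 1 in 20 groups. Signals below are log2(intensity + 16). E7 replicate 1 was high for COL12A1 (10.29), HMMR (8.85) and SLC16A12 (11.72). E7 replicate 2 was high for CDC20 (9.10), DCT (15.42) and KIF23 (8.89). E7 replicate 2 was low for CLDN1 (6.31), MYBL2 (9.19) and ZWILCH (7.16). E7 replicate 3 was high for ANXA7 (11.21). E7 replicate 3 was low for MYCN (12.18) and PTPRC (4.21). E7 replicate 4 was high for CYP46A1 (9.34) and SPOCK1 (7.66). E7 replicate 4 was low for HORMAD1 (6.90), MCM5 (4.74) and TPI1 (13.04). Of these genes, DCT, MCM5, MYBL2, PTPRC and ZWILCH were not called from E7 to E10. The other calls held without the array concerned.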

How the results depend on the processing

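The direction of every named gene with a call was kept under every alternative run. Over those genes and alternatives 262 single tests lost the call and 26 of genes not called gained one, against 4191 on the same side. Of the 1494 called genes 787 (52.7%) stayed called whichever single array was left out, and 313 (21.0%) under every setting compared gene by gene. The number of probe sets called, its higher part and its lower part were 919, 622 and 297 after median centring, 1416, 879 and 537 without the intensity trend in the variance, 1458, 908 and 550 without E7 replicates 1 and 2, 1369, 837 and 532 at an adjusted p under 0.01, and 803, 491 and 312 with a change of at least 2-fold required. The last pair of settings lower the counts by construction. Elsewhere the cause was not tested. Leaving out 1 array in turn gave 1626 to 2878 probe sets, 939 to 1557 higher and 682 to 1321 lower, with 24 to 32 falling mitosis genes and a median of that list from -1.37 to -1.08. That median was -0.859 at a pseudocount of 64, -1.11 among the arrays with an instrument file and -1.03 with the probe sets of a gene averaged. With the fluidics station as a block, added after seeing the data, 1507 probe sets were called, 550 of them lower, 14 mitosis genes fell, 52 named genes lost their call, and 44 list counts moved by over 1.5 times, against 28 that did not. The change in the station fit is E10 replicate 1 minus E7 replicate 4. Also added after seeing the data were the presence of an instrument file as a block (2063 probe sets) and a fit without E7 replicate 4 and E10 replicate 1 (1835). Array weights gave 3450 probe sets. With the replicate number as a block 2534 probe sets were called, 1430 higher and 1104 lower, with 32 mitosis genes lower. Same-numbered arrays did not deviate together (r = -0.17, 0.078 and 0.11 for numbers 1 to 3), while E7 replicate 4 and E10 replicate 1 did (r = 0.41). No pairing by number was seen, but deviations from means of 3 or 4 arrays cannot exclude one. Low signal limits the dim genes, whose changes shrink at larger pseudocounts, and 7 arrays limit precision.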

Other observations

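Further gene families held changes that the accounts above do not cover. ANXA11, a calcium-dependent membrane-binding annexin, read 10.66, 10.52, 10.38 and 10.43 at E7 and 12.01, 12.12 and 12.20 at E10 and rose by 1.61 ± 0.08 (adjusted p = 3.44e-09), and all E10 arrays lay above all E7 arrays. Of 10 annexins ANXA11 and ANXA7 (0.59) rose (20.0%, beside 6.10% of all genes). Of 15 aldehyde dehydrogenases 4 rose (26.7%, beside 6.10% of all genes) and 0 fell in limma (2 at an unadjusted p under 0.05). The rises were ALDH6A1 (0.63) and ALDH7A1 (0.65) of amino acid breakdown and ALDH18A1 (0.43) of proline synthesis beside ALDH1A2. Of 43 cytochrome P450 genes 3 rose and 1 fell (6.98% and 2.33%, beside 6.10% and 5.38% of all genes), and 20 were dim at both ages. CYP1B1, which oxidizes steroids and retinoids, fell by 1.01 ± 0.13 (adjusted p = 6.36e-05), and CYP46A1, the cholesterol 24-hydroxylase, rose by 0.77 ± 0.12 (adjusted p = 0.000732). Of 65 genes with a heat shock protein symbol 3 rose and 6 fell (4.62% and 9.23%, beside 6.10% and 5.38% of all genes). HSP90AB1, a major cytosolic chaperone, fell by 0.95 ± 0.14. Of 58 genes matched by a Rab symbol, not all of which need be GTPases, 4 rose and 3 fell (6.90% and 5.17%). RAB39B (-0.98) was the fall with the smallest adjusted p. Of 31 HOX genes 0 rose and 0 fell in limma (0 at an unadjusted p under 0.05), beside 6.10% and 5.38% of all genes. However, 24 of these 31 were dim at both ages, so the count says little about their regulation. The call of ALDH18A1 (0.21, adjusted p = 0.43) ended without E7 replicates 1 and 2. Median centring ended the calls of ANXA7, ALDH6A1, ALDH7A1, ALDH18A1 and HSP90AB1 (all with unchanged direction, adjusted p = 0.0577 to 0.322). Calls that ended with the station block were those of ALDH18A1 (0.21, adjusted p = 0.425) and CYP46A1 (0.43, adjusted p = 0.116). Leaving out a single array ended the call of ALDH18A1 without any 1 of 5 of the 7 arrays (all but E7 replicate 3 and E7 replicate 4; changes 0.34 to 0.53 over all 7).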
